A study of Mus musculus with 24 samples.

Results

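The 7 globin genes *Hbb-bh1*, *Hbb-y*, *Hba-x*, *Hbb-bs*, *Hbb-bt*, *Hba-a1* and *Hba-a2* were followed through the livers of embryonic day (E) 12.5 mouse embryos that lacked CHD4, BRG1 or both in endothelial cells (ECs). They were chosen by name and are 7 of the 25361 genes in the expression table. Liver cells had been separated with beads against CD146 into liver sinusoidal ECs (LSECs) and the remaining non-EC liver cells, and RNA of each fraction was sequenced for 4 genotypes with 3 libraries each, 24 in all. *Chd4-ECko* embryos were Chd4fl/fl;Brg1fl/+;VE-cadherin-Cre+, *Brg1-ECko* embryos were Chd4fl/+;Brg1fl/fl;VE-cadherin-Cre+, and *Brg1/Chd4-ECdko* embryos were Chd4fl/fl;Brg1fl/fl;VE-cadherin-Cre+. Each single mutant therefore also carried a floxed allele of the other gene, and controls were Cre-negative with floxed alleles of both. VE-cadherin-Cre is active in ECs and also in some blood cells of the liver. The mutants were kept on a mixed genetic background. Data of male and female embryos had been pooled, and red blood cells had been removed with an ammonium-chloride-potassium lysing buffer before the bead step.

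Hemoglobin is built from alpha-like and beta-like globin chains, and the genes for each kind lie together in a cluster. Early embryos make hemoglobin from the embryonic genes *Hbb-y* and *Hbb-bh1* (beta-like) and *Hba-x* (alpha-like, zeta-globin), which are used mainly by primitive red cells of the yolk sac. Definitive red cells, which arise in the fetal liver, use the adult genes *Hbb-bs*, *Hbb-bt*, *Hba-a1* and *Hba-a2*, a change known as globin switching. CHD4 is an ATPase of the NuRD chromatin-remodeling complex, a known corepressor of embryonic and fetal globin genes in red cells, and BRG1 (gene *Smarca4*) is an ATPase of the BAF complexes, which are needed for globin transcription.

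The beta-like genes lie on the minus strand of chromosome 7 (GRCm39), each with 3 exons. In the order of transcription these are *Hbb-y* (103500956 to 103502423), *Hbb-bh1* (103490844 to 103492371), *Hbb-bs* (103475730 to 103482989) and *Hbb-bt* (103461727 to 103465047). The alpha-like genes lie on the plus strand of chromosome 11 as *Hba-x* (32226400 to 32228116), *Hba-a1* (32233186 to 32234504) and *Hba-a2* (32246168 to 32247320). RefSeq promoter windows (GRCm38.p6) matched 6 of the 7 genes, and *Hbb-bh1* is named only. The 250 bases before the start are shown for both matched embryonic genes and for an adult gene of each cluster, because the embryonic genes moved together and the adult genes did not move with them. Capitals mark matches on either strand to 9 short motifs, and overlapping matches run together. The motifs were the KLF-type CACCC, the CCAAT box, a TATA-like ATAAA, the GATA-type AGATAA with its variants AGATAG as well as TGATAA and also TGATAG, the nuclear receptor half-site AGGTCA and the related TGACCA. Windows lay at chr7:103853208-103853457 on the minus strand for *Hbb-y*, chr11:32276350-32276599 on the plus strand for *Hba-x*, chr7:103827929-103828178 on the minus strand for *Hbb-bs* and chr11:32283422-32283671 on the plus strand for *Hba-a1*.
Hbb-y: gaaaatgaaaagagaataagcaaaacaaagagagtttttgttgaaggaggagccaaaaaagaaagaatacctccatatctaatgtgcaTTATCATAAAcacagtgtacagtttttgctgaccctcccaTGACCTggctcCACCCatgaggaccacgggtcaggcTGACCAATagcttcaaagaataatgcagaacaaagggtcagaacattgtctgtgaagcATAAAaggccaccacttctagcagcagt
Hba-x: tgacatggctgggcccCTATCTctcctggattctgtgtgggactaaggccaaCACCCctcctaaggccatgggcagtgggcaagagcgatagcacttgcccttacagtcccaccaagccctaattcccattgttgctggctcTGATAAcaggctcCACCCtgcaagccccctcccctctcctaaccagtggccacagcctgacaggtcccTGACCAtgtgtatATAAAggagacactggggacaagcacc
Hbb-bs: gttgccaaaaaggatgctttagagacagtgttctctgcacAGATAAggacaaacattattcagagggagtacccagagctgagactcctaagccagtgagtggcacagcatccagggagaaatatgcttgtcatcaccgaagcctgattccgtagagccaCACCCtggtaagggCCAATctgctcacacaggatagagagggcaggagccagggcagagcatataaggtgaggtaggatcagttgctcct
Hba-a1: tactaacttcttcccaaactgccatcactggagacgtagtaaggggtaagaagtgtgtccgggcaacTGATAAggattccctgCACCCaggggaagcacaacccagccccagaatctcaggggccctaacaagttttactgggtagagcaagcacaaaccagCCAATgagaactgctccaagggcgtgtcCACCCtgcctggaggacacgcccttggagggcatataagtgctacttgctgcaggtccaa

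CACCC, the core of the site bound by the red cell factor KLF1, occurred in all 6 windows. It is also common elsewhere, with a match in 57.5% of 32851 promoter windows of the same length. A GATA-type motif occurred in 5 of 6 windows, as TGATAA in *Hbb-y*, *Hba-x*, *Hba-a1* and *Hba-a2* (9.05% of all windows) and as AGATAA in *Hbb-bs* (11.2%). *Hba-x* also held AGATAG (8.95%), and TGATAG was in none of the 6 (7.29%). These shares are for single variants, and the share of windows with any GATA-type motif was not computed. The windows of *Hba-a1* and *Hba-a2* hold nearly the same sequence, so they are not separate cases. CCAAT was in 5 windows, *Hba-x* being the exception (37.4%), and ATAAA was in *Hbb-y*, *Hba-x* and *Hbb-bt* (40.0%). TGACCA was in *Hbb-y* at -86 and *Hba-x* at -40 relative to the start and in none of the 4 adult windows (13.6%). AGGTCA was in *Hbb-y* only (16.3%), where TGACCA overlapped CCAAT.

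Expression is given as TPM, a transcript abundance scaled to gene length and to the same total in every library, so that levels can be compared between genes. None of the 168 values of the 7 genes was 0, and every gene reached 1 TPM in all 12 libraries of each fraction. The 7 genes together made up 0.0357% to 0.254% of the TPM of an LSEC library and 0.144% to 1.11% of a non-EC library. In bulk RNA, fewer cells of a type and less RNA per cell cannot be told apart. The ratio of alpha-like to beta-like TPM lay between 0.420 and 0.766 across the 24 libraries, with ranges that overlapped between the fractions.

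The libraries were checked against their labels. The summed TPM of 10 endothelial markers was 912 to 1899 in the LSEC libraries and 30.4 to 73.2 in the non-EC libraries, and none of the 10 was at 0 in any group. LSEC libraries were not free of other cells, because the summed TPM of 10 hepatoblast markers was 3818 to 31298 in them, the highest being a *Brg1-ECko* library, and that of 29 red cell genes (membrane and enzyme genes of red cells, without the globins) was 311 to 1031. Mitochondrial transcripts took 13.9% to 31.5% of TPM in LSECs and 2.33% to 7.69% in non-EC cells. Whole-gene *Chd4* TPM in *Chd4-ECko* LSECs differed from control by a log2 fold change of -0.30 (SE 0.17, adjusted p = 0.962, limma), and *Smarca4* in *Brg1-ECko* LSECs by -0.16 (SE 0.17, adjusted p = 0.779). In *Brg1/Chd4-ECdko* LSECs the differences were -0.07 and -0.14 (SE 0.17 each). None passed the test, and a transcript without the floxed exons still adds to a whole-gene value. By quantitative PCR, the paper reports lower *Chd4* and *Brg1* transcripts in E12.5 LSECs of the mutants concerned, isolated there with a LYVE1 antibody.

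In control livers *Hbb-bs*, *Hbb-bt* and *Hba-a1* were above the embryonic globins in every library, and *Hba-a2* in 5 of 6. In control LSECs, *Hbb-bh1* was at 2.67, 3.84 and 1.85 TPM, *Hbb-y* at 15.0, 7.64 and 15.9 TPM, and *Hba-x* at 11.9, 6.14 and 11.8 TPM (replicates 1, 2 and 3). In control non-EC cells, *Hbb-bh1* was at 12.0, 10.4 and 3.40 TPM, *Hbb-y* at 5.69, 3.16 and 2.03 TPM, and *Hba-x* at 12.2, 5.41 and 4.27 TPM. Adult *Hbb-bs* was at 230.0, 605 and 209 TPM in the LSECs and 1678, 3038 and 994 TPM in the non-EC cells. *Hba-a1* was at 188, 391 and 160.0 TPM in LSECs and 1537, 2521 and 724 TPM in non-EC cells. *Hba-a2* was at 65.9, 127 and 3.07 TPM in LSECs, where the last value lay below *Hbb-y* and *Hba-x* of that library, and at 521, 817 and 14.8 TPM in non-EC cells.

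Between the control fractions, a gene was called when limma's adjusted p was below 0.05 and the fold change on the log2(TPM + 1) scale was at least 1 in size. *Hbb-y* was called higher in LSECs, by 1.60 (SE 0.54, adjusted p = 0.0125), without overlap between the groups. It is 1 of the 7 genes, where 19.4% of 13775 tested genes were called higher and 34.9% were without overlap on that side. *Hbb-bs* fell by 2.48 (SE 0.73, adjusted p = 0.00529), *Hbb-bt* fell by 2.33 (SE 0.93, adjusted p = 0.0317) and *Hba-a1* fell by 2.63 (SE 0.60, adjusted p = 0.000612) in LSECs relative to non-EC cells. That is 3 of 7 called lower, beside 13.3% of all genes. *Hba-a2* (-2.53, SE 1.21, adjusted p = 0.0706), *Hbb-bh1* (-1.23, SE 0.66, adjusted p = 0.103) and *Hba-x* (0.46, SE 0.61, adjusted p = 0.516) did not pass.

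LSEC and non-EC libraries of the same genotype and number deviated together from their group means in 12 of 12 pairs (correlation above 0.1), so the comparison was repeated with the embryo (genotype and number) as a block, a choice made after seeing the data. With the block, *Hbb-bh1* (adjusted p = 0.000254) and *Hba-a2* (adjusted p = 0.00443) were also called lower in control LSECs, which gave 5 of 7 lower, beside 13.3% of all genes. *Hbb-y* remained the only 1 called higher (adjusted p = 0.000198), and *Hba-x* did not pass (adjusted p = 0.231). The red cell genes were lower in control LSECs as well, 27 of 29 being called, with a median log2 fold change of -2.999 against -0.09 over all genes. When each library was set to the mean of those red cell genes, the differences of *Hbb-y* and *Hba-x* in favour of LSECs were 4.55 (adjusted p = 2.47e-16) and 3.41 (adjusted p = 1.75e-10). On that scale *Hbb-bh1* was also higher in LSECs, by 1.72 (adjusted p = 0.000393), and the 4 adult genes were at 0.32 to 0.62, with none passing. Setting levels this way moves every gene of the comparison by the same amount, which the lower red cell genes in LSECs fix. These values and their p are therefore no separate result for single globins. The share of all genes passing on this scale is not given. The call of *Hbb-bt* was lost without LSEC control 1 or 3 or non-EC control 1 or 2 (adjusted p 0.0761 to 0.165), under quantile normalization (adjusted p = 0.0691) and with TPM rescaled without globin and mitochondrial genes (adjusted p = 0.0575), and that of *Hbb-y* without non-EC control 3 (adjusted p = 0.0596). Without non-EC control 3 *Hbb-bh1* (-1.72, adjusted p = 0.0402) and *Hba-a2* (-4.32, adjusted p = 0.00139) were called lower, and *Hba-a2* also without LSEC control 2 (-3.52, adjusted p = 0.0231).

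The first question was whether loss of endothelial CHD4 changed globin transcripts in the LSEC fraction. In *Chd4-ECko* LSECs all 3 embryonic globins rose and none of the 4 adult globins passed the test. *Hbb-bh1* was at 102, 789 and 328 TPM in the 3 libraries, all above the 1.85 to 3.84 TPM of the controls, and the mean was 146 times the control mean. Its log2 fold change was 6.34 (SE 0.52, 95% interval 5.22 to 7.46, adjusted p = 2.94e-05). *Hba-x* was at 103, 467 and 254 TPM, again without overlap with control. Its fold change was 4.46 (SE 0.42, interval 3.54 to 5.37, adjusted p = 0.000148), and the mean ratio was 27.7. *Hbb-y* was at 61.2, 349 and 137 TPM against at most 15.9 TPM in control LSECs. The fold change was 3.44 (SE 0.44, interval 2.49 to 4.40, adjusted p = 0.00213), with a mean ratio of 14.2. Of all 13444 genes tested, 0.491% were called higher, beside 3 of the 7 globins, and 8.7% were without overlap on the higher side.

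The *Chd4-ECko* libraries differed among themselves. Replicate 2 was highest and replicate 1 lowest for all 3 embryonic genes. The mitochondrial share of replicates 1, 2 and 3 was 31.5%, 20.4% and 14.1% in these LSECs, against 20.6% to 24.6% in control, and 7.37%, 3.43% and 2.33% in the non-EC cells of the genotype, against 6.17% to 7.69%. Replicate 1 was thus the library with the highest share in both fractions, and its part in the globin levels was not tested. Each call held when any of the 6 libraries was left out. Fold changes without 1 library ranged from 5.64 to 7.11 for *Hbb-bh1*, from 3.95 to 5.03 for *Hba-x* and from 2.80 to 4.05 for *Hbb-y*. The addition of 1 TPM before the logarithm makes the fold change of a gene with low control values smaller than the ratio of its TPM.

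**Figure D1:**
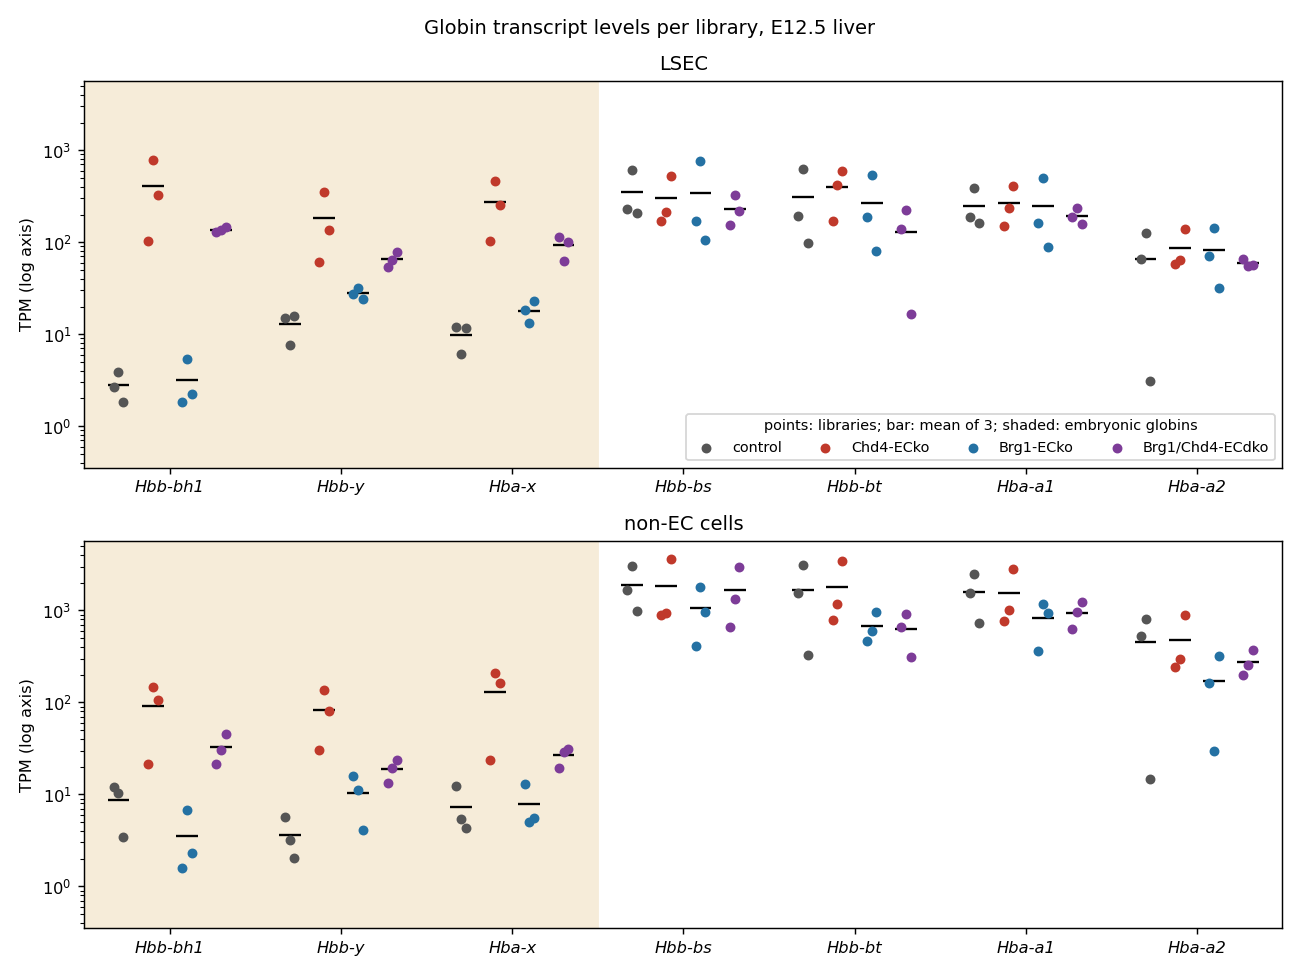
TPM of each globin gene (log axis) in each of the 24 libraries, by fraction and genotype; each point is a library and short lines mark group means. The *Chd4-ECko* and *Brg1/Chd4-ECdko* points of the 3 embryonic genes lie above every control point of their fraction, whereas those of the adult genes overlap with control.

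The adult genes in *Chd4-ECko* LSECs overlapped with control. *Hbb-bs* was at 168, 213 and 522 TPM, against 209 to 605 TPM in control, and its fold change was -0.21 (SE 0.62, interval -1.54 to 1.12). *Hbb-bt* was at 171, 420.0 and 597 TPM, with a fold change of 0.61 (SE 0.90, interval -1.33 to 2.54). *Hba-a1* was at 150.1, 233 and 413 TPM, with 0.10 (SE 0.52, interval -1.01 to 1.21). *Hba-a2* was at 58.6, 63.5 and 140.0 TPM, with 1.32 (SE 0.91, interval -0.64 to 3.28). The adjusted p was 1.00 for each. Those intervals are wide. Among the 3 control LSEC libraries *Hbb-bt* ran from 98.1 to 631 TPM and *Hba-a2* from 3.07 to 127 TPM.

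Double mutants were compared with the same control libraries as *Chd4-ECko*, so the results share that group. In *Brg1/Chd4-ECdko* LSECs the 3 embryonic globins were again called higher, 3 of 7 beside 0.491% of all genes. *Hbb-bh1* was at 129.6, 135 and 146 TPM, a narrow range and 49.1 times the control mean, with a fold change of 5.22 (SE 0.52, adjusted p = 0.000451). *Hba-x* was at 113, 63.1 and 101 TPM, with 3.11 (SE 0.42, adjusted p = 0.00410). *Hbb-y* was at 54.3, 63.4 and 78.0 TPM, with 2.30 (SE 0.44, adjusted p = 0.0281). None of these groups overlapped with control, 3 of 7 genes beside 20.8% of all genes without overlap on the higher side. The *Hbb-y* call rested on all 6 libraries, since without any of them the adjusted p was 0.0570 to 0.160 at fold changes of 1.996 to 2.48. The adult genes overlapped with control and their smallest adjusted p was 0.497.

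The double mutant means were below those of *Chd4-ECko* for all 7 globins, and no difference passed the test. Relative to *Chd4-ECko*, the differences were -1.12 for *Hbb-bh1* (SE 0.52, interval -2.24 to -0.00177, adjusted p = 0.481), -1.14 for *Hbb-y* (SE 0.44, interval -2.09 to -0.19, adjusted p = 0.469) and -1.35 for *Hba-x* (SE 0.42, interval -2.26 to -0.44, adjusted p = 0.435). The 2 groups overlapped for every globin, and 0 of 7 genes passed, beside 0.0372% of all genes. Without 1 library the differences ranged from -1.89 to -0.42 for *Hbb-bh1*, -1.75 to -0.50 for *Hbb-y* and -1.93 to -0.84 for *Hba-x*. The number of globins called stayed at 0. At an unadjusted p under 0.05, 4 of the 7 differed, as did 1397 of all 13444 genes. The 4th was adult *Hbb-bt*, and the estimates of all 7 globins were negative.

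In *Brg1-ECko* LSECs, *Hbb-bh1* was at 1.84, 5.40 and 2.21 TPM and overlapped with control, with a fold change of 0.07 (SE 0.52, interval -1.05 to 1.19). *Hbb-y* was at 27.6, 31.8 and 24.3 TPM, with 1.12 (SE 0.44, interval 0.16 to 2.07, adjusted p = 0.443). *Hba-x* was at 18.2, 13.3 and 22.8 TPM, with 0.82 (SE 0.42, interval -0.09 to 1.73, adjusted p = 0.561). The *Hbb-y* and *Hba-x* values all lay above control, 2 of 7 globins, whereas 10.9% of all genes were without overlap in that direction. None of the 7 was called in this comparison, beside 0.0149% of all genes, and 1 of the 7 and 1302 of all 13444 genes had an unadjusted p under 0.05. Other cell markers differed in these libraries, with 10 of 10 hepatoblast markers positive (median 1.15, summed TPM 7164 to 31298 against 3818 to 7908) and 0 of 10 endothelial markers positive (median -0.46, 912 to 1470 against 1453 to 1899). Their part in the globin values was not tested.

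**Figure D2:**
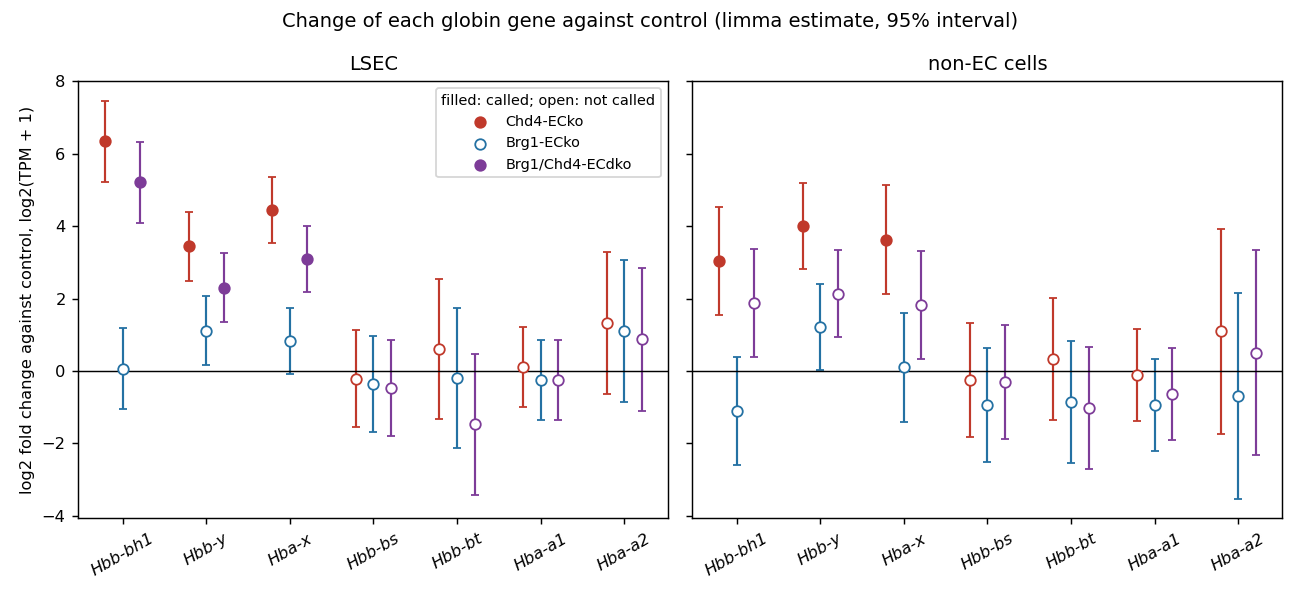
Limma log2 fold change of each globin gene against control on the log2(TPM + 1) scale, with 95% intervals, in LSECs (left) and non-EC cells (right); filled symbols passed the test. The embryonic genes of *Chd4-ECko* lie between 3.04 and 6.34 in both panels, and no adult gene is filled.

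The same comparisons in the non-EC fraction asked whether the change was seen outside the CD146+ cells. In *Chd4-ECko* non-EC cells the 3 embryonic globins rose as well, 3 of 7 beside 0.434% of 12223 genes called higher. *Hbb-y* was at 30.5, 135 and 80.5 TPM against 2.03 to 5.69 TPM in control, with a fold change of 4.01 (SE 0.54, interval 2.82 to 5.20, adjusted p = 0.00455). *Hba-x* was at 23.8, 208 and 162 TPM, with 3.63 (SE 0.68, interval 2.13 to 5.13, adjusted p = 0.0123). *Hbb-bh1* was at 21.4, 149 and 107 TPM, with 3.04 (SE 0.68, interval 1.54 to 4.53, adjusted p = 0.0245). None overlapped with control, where 15.8% of all genes were without overlap on the higher side. Replicate 2 was again highest and replicate 1 lowest. Other cell markers moved in the same libraries. Summed TPM of 10 hepatoblast markers was 29843 to 39787 against 19148 to 21379 in control, without overlap, with 9 of 10 estimates positive, 1 called higher (*Serpina1a*) and a median of 0.84. That of 7 stem and progenitor markers was 311 to 366 against 391 to 498, also without overlap, with 0 of 7 estimates positive and 0 called. The 6 stromal markers had 6 positive estimates, 0 called and overlapping sums. The part of these in the globin values was not tested.

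The *Hbb-bh1* call in non-EC cells was the weakest of the 3. It was lost without control 2, control 3, *Chd4-ECko* 2 or *Chd4-ECko* 3 (adjusted p 0.0551 to 0.0838). Fold changes without 1 library ranged from 2.50 to 3.87 for *Hbb-bh1*, 3.05 to 4.59 for *Hba-x* and 3.53 to 4.59 for *Hbb-y*. The calls of *Hba-x* and *Hbb-y* held each time, with a largest adjusted p of 0.0492 and 0.0230 (limma). With only the compared groups in the fit, neither *Hbb-bh1* (adjusted p = 0.108) nor *Hba-x* (adjusted p = 0.0839) passed, while *Hbb-y* did (adjusted p = 0.0316). The adult genes overlapped with control in non-EC cells. Their fold changes were -0.25 for *Hbb-bs* (SE 0.72, 885 to 3642 TPM), 0.33 for *Hbb-bt* (SE 0.77, 780.2 to 3435 TPM), -0.11 for *Hba-a1* (SE 0.58, 776 to 2788 TPM) and 1.09 for *Hba-a2* (SE 1.29, 245 to 884 TPM), with a smallest adjusted p of 0.579.

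In *Brg1/Chd4-ECdko* non-EC cells the embryonic genes lay above control in every library without passing the test, and hepatoblast sums were above control there as well (24758 to 33134 TPM, 10 of 10 estimates positive, 0 called). Summed erythroid transcription factors were below control without overlap (1624 to 1819 against 1894 to 2283 TPM, 0 of 15 estimates positive, 0 called), and 1 of 29 red cell genes had a positive estimate, with 0 called. The part of these in the globin values was not tested. *Hbb-bh1* was at 21.4, 30.6 and 45.2 TPM (fold change 1.88, SE 0.68, adjusted p = 0.258), *Hbb-y* at 13.3, 19.5 and 23.5 TPM (2.14, SE 0.54, adjusted p = 0.0987) and *Hba-x* at 19.4, 28.8 and 31.5 TPM (1.82, SE 0.68, adjusted p = 0.285). These 3 were the members without overlap on the higher side, beside 16.0% of all genes. None of the 7 was called in limma's fit, beside 0.115% of all genes, while 3 of the 7 and 1433 of all 12223 genes had an unadjusted p under 0.05. With the compared groups alone *Hbb-y* passed (adjusted p = 0.0470).

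Against *Chd4-ECko* non-EC cells, the double mutant differed by -1.15 for *Hbb-bh1* (SE 0.68), -1.87 for *Hbb-y* (SE 0.54) and -1.81 for *Hba-x* (SE 0.68), with a smallest adjusted p of 0.217. Limma called 0 of 12223 genes here, 2668 of which had an unadjusted p under 0.05, 2 of the globins among them. *Hbb-y* was the only member whose groups did not overlap on the lower side, 1 of 7 beside 7.12% of all genes. Without *Chd4-ECko* 1, whose embryonic globins were the lowest of its group, all 3 differences passed, at -1.99 (adjusted p = 0.0172), -2.45 (adjusted p = 0.00532) and -2.77 (adjusted p = 0.00375). In *Brg1-ECko* non-EC cells, *Hbb-bh1* was at 1.58, 6.76 and 2.28 TPM, *Hbb-y* at 16.0, 11.1 and 4.14 TPM and *Hba-x* at 12.8, 5.07 and 5.59 TPM, all overlapping with control. The fold changes were -1.11 (SE 0.68), 1.22 (SE 0.54) and 0.10 (SE 0.68), with 0 of 7 called beside 1.37% of all genes. An unadjusted p under 0.05 was found for 1 of the 7 and for 3428 of all 12223 genes. In these libraries 10 of 10 hepatoblast markers were positive (median 0.95) and 3 were called higher (*Apoa1*, *Apoa2* and *Serpina1a*, names picked once their values were known), and the summed TPM was 28578 to 42072 against 19148 to 21379 in control, without overlap. Their part in the globin values was not tested.

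The fractions were then set side by side. Between libraries of the same genotype and number, the LSEC to non-EC ratio of *Hbb-bh1* was 0.222, 0.368 and 0.543 in control and 1.16, 0.799 and 0.970 in *Brg1-ECko*. It was 4.80, 5.31 and 3.06 in *Chd4-ECko* and 6.04, 4.41 and 3.23 in *Brg1/Chd4-ECdko*. All 6 values of the genotypes lacking CHD4 therefore lay above all 6 values of the others. The pairing of *Brg1-ECko* 2 is uncertain. For *Hbb-y* the ratio exceeded 1 in all 12 pairs, with 2.42 to 7.84 in control and 1.70 to 2.58 in *Chd4-ECko*, which overlapped.

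**Figure D3:**
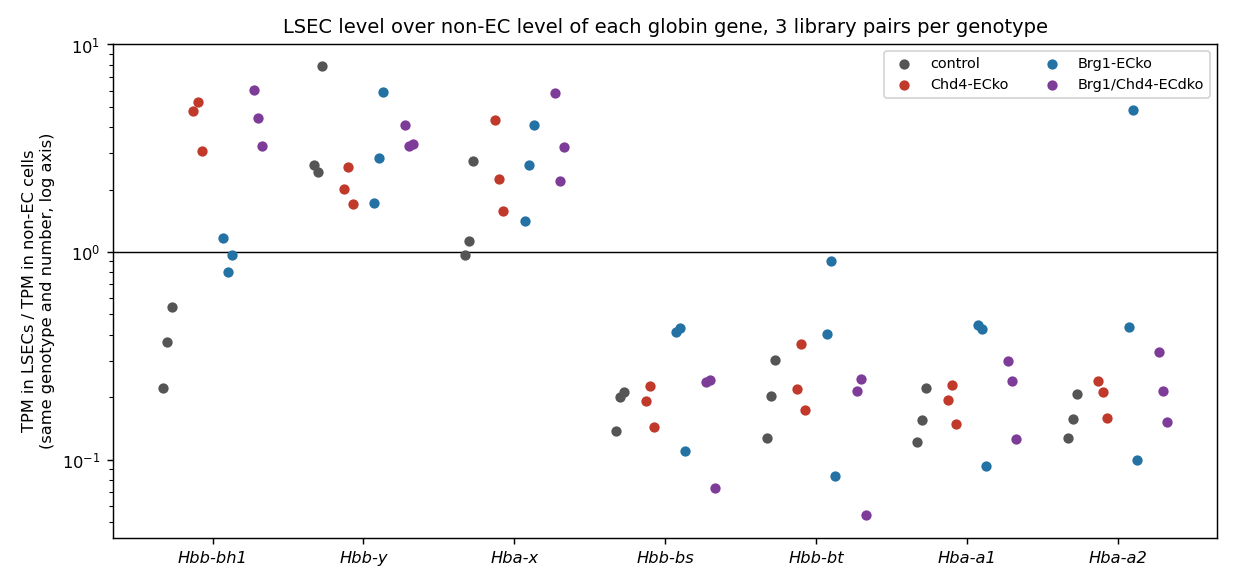
Ratio of TPM in the LSEC library to TPM in the non-EC library of the same genotype and number (log axis) for each globin gene; the line marks equal levels. *Hbb-bh1* lies below 1 in the 3 controls and between 3.06 and 6.04 in *Chd4-ECko* and *Brg1/Chd4-ECdko*, while adult genes lie below 1 apart from *Hba-a2* of *Brg1-ECko* 2 at 4.85.

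The difference between the LSEC and the non-EC fold change was tested as an interaction. For *Chd4-ECko* it was 3.30 for *Hbb-bh1* (SE 0.93, interval 1.37 to 5.24, adjusted p = 0.0899), -0.56 for *Hbb-y* (SE 0.76) and 0.83 for *Hba-x* (SE 0.86). None of the 7 was called without a block, beside 0.690% of 13775 genes in either direction, and 1 had an unadjusted p under 0.05, as did 2627 of all genes. Without LSEC *Chd4-ECko* 1 *Hbb-bh1* passed (4.07, adjusted p = 0.0336), whereas without non-EC *Chd4-ECko* 1 the difference was 2.47. Relative to the red cell genes it was 2.40 (adjusted p = 0.217) and did not pass. With the embryo as a block the *Hbb-bh1* difference kept its size with an SE of 0.31 and passed (adjusted p = 0.00149), 1 of 7 beside 0.457% of all genes called higher. For *Brg1/Chd4-ECdko* the *Hbb-bh1* difference was 3.34 (SE 0.93, interval 1.41 to 5.27, adjusted p = 0.242), with 0 of 7 called beside 0.0581%, and 1 at an unadjusted p under 0.05 beside 1043 of all genes. The blocked fit gave an SE of 0.31 and adjusted p = 0.00133, 1 of 7 beside 0.0290% called higher. *Hbb-y* (0.17, SE 0.76) and *Hba-x* (1.29, SE 0.86) of the double mutant did not pass in either fit. For *Brg1-ECko* the differences were 1.18 for *Hbb-bh1* (SE 0.93, adjusted p = 0.0894 with the block), -0.10 for *Hbb-y* (SE 0.76) and 0.72 for *Hba-x* (SE 0.86), with 0 of 7 called beside 0.639%, and 0 at an unadjusted p under 0.05 beside 2459 of all genes. With both libraries of *Brg1-ECko* 2 left out of the blocked fit, the *Hbb-bh1* differences of *Chd4-ECko* (adjusted p = 0.00392) and *Brg1/Chd4-ECdko* (adjusted p = 0.00352) still passed.

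The mix of chains was compared as well. The embryonic share of beta-like TPM, that is *Hbb-bh1* and *Hbb-y* over all 4 beta-like genes, was 3.99%, 0.921% and 5.45% in control LSECs and 32.6%, 64.3% and 29.4% in *Chd4-ECko* LSECs. It was 38.4%, 26.5% and 48.8% in *Brg1/Chd4-ECdko* LSECs and 7.60%, 2.78% and 12.4% in *Brg1-ECko* LSECs. Mutants lacking CHD4 did not overlap with control or *Brg1-ECko*, and *Chd4-ECko* and the double mutant overlapped with each other. The alpha-like share, *Hba-x* over all 3 alpha-like genes, was 4.47%, 1.17% and 6.73% in control LSECs, 33.0%, 61.2% and 31.5% in *Chd4-ECko*, 30.9%, 18.0% and 32.2% in the double mutant and 7.20%, 2.03% and 15.9% in *Brg1-ECko*. In non-EC cells, where the adult genes were higher, both shares were at most 13.6%. The beta-like share was 0.220% to 0.549% in control non-EC cells, 2.58% to 11.9% in *Chd4-ECko*, 2.04% to 2.57% in the double mutant and 0.330% to 1.96% in *Brg1-ECko*. The alpha-like share was 0.162% to 0.591% in control, 2.28% to 13.6% in *Chd4-ECko*, 1.90% to 2.29% in the double mutant and 0.422% to 2.37% in *Brg1-ECko*. For the alpha-like share in non-EC cells, both genotypes lacking CHD4 thus overlapped with *Brg1-ECko* but not with control. For the beta-like share they overlapped with neither.

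**Figure D4:**
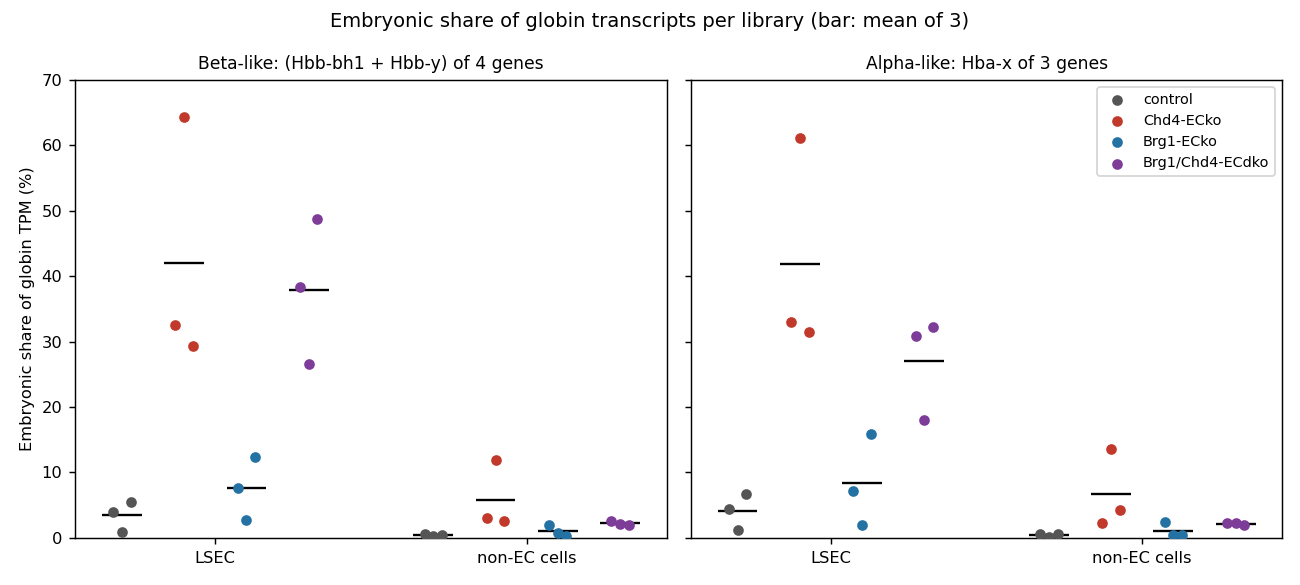
Embryonic share of beta-like and of alpha-like globin TPM (percent) in each library by fraction and genotype, with group means as short lines. The LSEC shares of *Chd4-ECko* lie between 29.4% and 64.3%, and those of control between 0.921% and 6.73%.

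Within the embryonic beta-like genes, the ratio of *Hbb-bh1* to *Hbb-y* also differed between genotypes in LSECs. It was 0.178, 0.502 and 0.116 in control and 0.0666, 0.170 and 0.0908 in *Brg1-ECko*, so *Hbb-y* was the higher gene in these 6 libraries. In *Chd4-ECko* it was 1.67, 2.26 and 2.40, and in *Brg1/Chd4-ECdko* 2.38, 2.13 and 1.87, so *Hbb-bh1* was the higher gene in all 6. In non-EC cells *Hbb-bh1* was the higher gene in control, at 2.11, 3.30 and 1.68, and the ratio was lower in *Chd4-ECko*, at 0.700, 1.10 and 1.33. It was also below control in *Brg1-ECko*, at 0.0990, 0.606 and 0.551, and overlapped with control in *Brg1/Chd4-ECdko*, at 1.61, 1.57 and 1.92, so the order in non-EC cells did not follow the loss of CHD4. These ratios are given as a description with no test.

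Ordered by mean level over the 8 groups, *Hbb-bh1* was highest in *Chd4-ECko* LSECs (407 ± 350 TPM, SD, n = 3), followed by *Brg1/Chd4-ECdko* LSECs (137 ± 8.41) and *Chd4-ECko* non-EC cells (92.4 ± 64.9). Next came *Brg1/Chd4-ECdko* non-EC cells (32.4 ± 12.0), then control non-EC cells (8.62 ± 4.59), *Brg1-ECko* non-EC cells (3.54 ± 2.81), *Brg1-ECko* LSECs (3.15 ± 1.96) and control LSECs (2.79 ± 1.00). Neighbours in this order overlapped, except *Brg1/Chd4-ECdko* and control non-EC cells. *Hbb-y* ran from 182 ± 149 TPM in *Chd4-ECko* LSECs to 3.63 ± 1.87 TPM in control non-EC cells, and *Hba-x* from 275 ± 183 to 7.31 ± 4.31 TPM in the same groups. For every adult gene the 4 non-EC means lay above the 4 LSEC means, and neighbouring groups overlapped throughout.

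The adult genes form pairs that reads can hardly separate. The coding sequences of *Hba-a1* and *Hba-a2* (429 bases) differ at 1 base, C381T counted from the A of the start codon, and 82.5% of 150-base windows of *Hba-a1* occur unchanged in *Hba-a2*. Those of *Hbb-bs* and *Hbb-bt* (444 bases) differ by C417T, with 90.5% of windows shared. How reads matching several genes were treated is not given in the sources used here, so values within a pair are uncertain. The sequences compared are those of the reference build GRCm39, while the mice were of a mixed genetic background. The embryonic genes do not share this limit, since *Hbb-bh1* and *Hbb-y* differ at 105 coding bases, *Hba-x* and *Hba-a1* differ at 163, and neither pair shares any 150-base window.

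The ratio of *Hba-a2* to *Hba-a1* was 0.236 to 0.444 in 21 libraries. It was 0.0192 in LSEC control 3, 0.0204 in non-EC control 3 and 0.0251 in non-EC *Brg1-ECko* 2. The ratio of *Hbb-bt* to *Hbb-bs* was likewise low in LSEC *Brg1/Chd4-ECdko* 3 (0.0768) and non-EC *Brg1/Chd4-ECdko* 3 (0.104), and its highest value was 1.97. Low ratios thus appeared in both fractions of the same number, with the exception of *Brg1-ECko* 2, whose LSEC library had 0.287 for the alpha pair. Over all genes tested, however, the *Brg1-ECko* 2 libraries deviated together at r = 0.4075, where the 12 pairs ranged from 0.124 to 0.411. Whether both *Brg1-ECko* 2 libraries came from 1 embryo is therefore uncertain, which bears on every LSEC to non-EC ratio given for that number and on the blocked fits. Summing each pair before the logarithm gave *Chd4-ECko* fold changes of 0.22 (alpha) and 0.19 (beta) in LSECs and -0.012 and -0.026 in non-EC cells, and none passed.

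**Figure D5:**
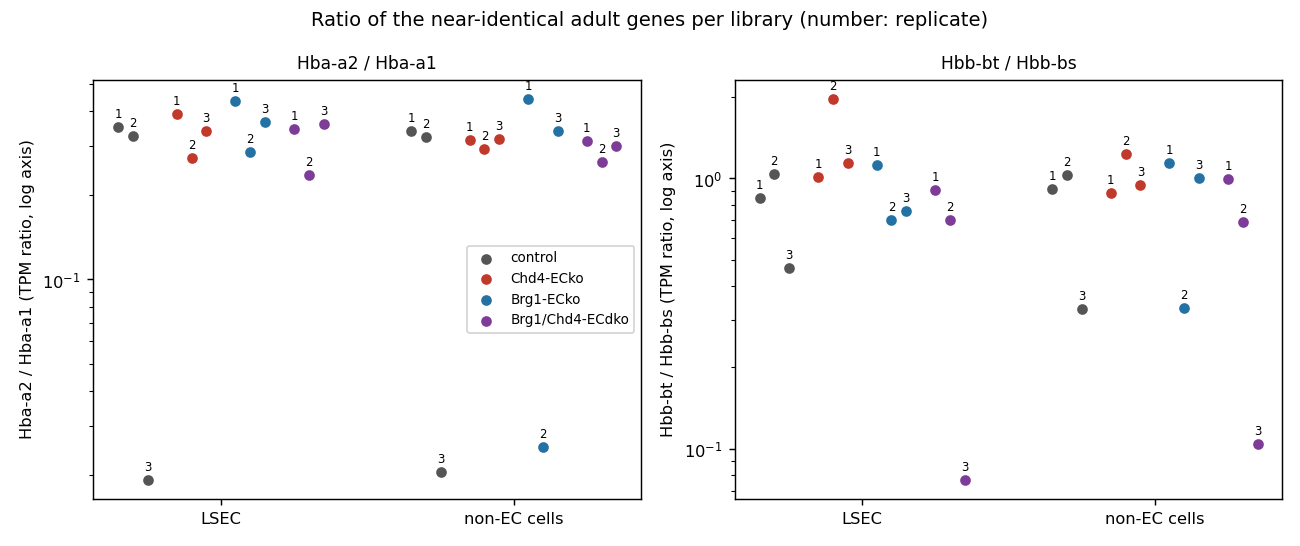
Ratio of *Hba-a2* to *Hba-a1* (left) and of *Hbb-bt* to *Hbb-bs* (right) in each of the 24 libraries (log axes), coloured by genotype and numbered by replicate. Of the alpha ratios, 3 lie between 0.0192 and 0.0251, and of the beta ratios 2 lie at 0.0768 and 0.104.

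Across the 24 libraries, after the mean of each fraction was subtracted, the 3 embryonic genes correlated with each other at Pearson r = 0.826 to 0.945, and with the 4 adult genes at -0.01 to 0.35. These are descriptions over libraries that share genotypes. The 5 other genes most like the mean of the embryonic globins were *Trap1a* (r = 0.939), *Tnni3* (0.927), the transcription factor *Tcfl5* (0.913), *Tex19.1* (0.907) and the neurofilament gene *Nefh* (0.886), among 13768 genes. *Nefh* was at 1.13 to 1.41 TPM in control LSECs and 13.8 to 20.2 TPM in *Chd4-ECko* LSECs, and *Tex19.1* at 0 to 0.262 and 0.862 to 1.69 TPM. Those most like the mean of the adult globins were the anion exchanger *Slc4a1* (0.941), the heme synthesis enzyme *Alas2* (0.929), *Trim10* (0.895), *Apol8* (0.876) and the red cell skeleton gene *Dmtn* (0.838). *Slc4a1* was at 10.4 to 51.0 TPM in control and 18.8 to 57.4 TPM in *Chd4-ECko* LSECs, and *Alas2* at 3.96 to 14.8 and 7.21 to 24.5 TPM, both overlapping.

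Genes of the wider hemoglobin program were counted by list in *Chd4-ECko* LSECs, where the median log2 fold change of all genes was 0.01. Of 29 red cell genes, 1 was called higher, the red cell carbonic anhydrase *Car1* (20.2, 58.8 and 18.1 TPM against 0.340 to 1.18 TPM), and 27 had a positive estimate, with a median of 0.62. Of 15 erythroid transcription factors such as *Gata1* and *Klf1*, 0 were called and the median was 0.47. Of 14 heme synthesis genes 0 were called (median 0.21), and of 11 genes of hemoglobin handling and turnover 0 were called (median 0.12). Among 35 regulators linked to globin switching, including *Bcl11a*, *Zbtb7a*, *Lin28b* and NuRD subunits, 0 were called, 22 had a positive estimate and the median was 0.03. Of the alpha cluster's neighbours 5 were tested and 0 called (median 0.04).

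In *Brg1/Chd4-ECdko* LSECs, where the median of all genes was 0.16, 0 of 29 red cell genes were called (median 0.07) and 0 of 15 erythroid factors (median 0.30). Of the 35 switching regulators 0 were called there, and 34 had a positive estimate (median 0.28). For *Chd4-ECko* non-EC cells 0 of the 35 were called and 17 were positive (median -0.05). Their summed TPM there was 3903 to 4165.56, just below the 4166.45 to 4300 of control. In *Chd4-ECko* non-EC cells 0 of 29 red cell genes were called higher and 1 lower (the transferrin receptor *Tfrc*, a name picked once its value was known), beside 0.450% of all genes, with a median of -0.16, and the erythroid factors had a median of -0.04. In *Brg1-ECko* non-EC cells all 29 estimates of red cell genes were negative (median -0.65).

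The summed TPM of the red cell genes was 350.1 to 750.0 in control, 685 to 1031 in *Chd4-ECko*, 311 to 848 in *Brg1-ECko* and 485 to 719 in *Brg1/Chd4-ECdko* LSECs, all overlapping with control. In non-EC cells it was 3389 to 5590 in control, 2688 to 4425 in *Chd4-ECko*, 2956 to 3614 in *Brg1/Chd4-ECdko* and 1828 to 2907 in *Brg1-ECko*, the only 1 of the 3 genotypes without overlap with control. With each library set to the mean of these red cell genes, *Hbb-y* was called higher in *Brg1-ECko* non-EC cells (1.90, adjusted p = 0.0220, limma). Without that step it was at 1.22 and not called (adjusted p = 0.171). The step moves every gene of a comparison by the same amount, here upwards because the red cell genes were lower. When each library was set to the mean of the red cell genes, the *Chd4-ECko* fold changes in LSECs were 5.69 for *Hbb-bh1*, 2.80 for *Hbb-y* and 3.81 for *Hba-x*, and all passed. Those of the double mutant LSECs were 5.11, 2.19 and 3.00, and those of *Chd4-ECko* non-EC cells 3.29, 4.26 and 3.88, and all passed. These values follow from the same step and are no separate result for single globins. The share of all genes passing on this scale is not given, and the part of red cell content in the globin values was not tested.

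Markers of other cells were examined in the same LSEC libraries. Of 10 macrophage markers, 2 were called higher in *Chd4-ECko* LSECs, *Fcgr3* (log2 fold change 1.40, adjusted p = 0.0397) and *Spi1* (1.10, adjusted p = 0.0351), all 10 estimates were positive, and the summed TPM was 936 to 1504 against 769 to 909 in control, without overlap. Summed erythroid factors were also without overlap, at 558 to 666 against 425 to 529 TPM. Endothelial (10), hepatoblast (10), megakaryocyte (6) and stromal (6) markers had 0 called genes and summed TPM that overlapped with control. Of 6 stem and progenitor markers tested 0 were called (smallest adjusted p = 0.0549, limma) and 5 were positive, with a median of 0.76, and their sums overlapped. In *Brg1/Chd4-ECdko* LSECs the same markers had a median of 0.90 with 5 of 6 positive, and macrophage markers a median of 0.64 with 9 of 10 positive, with 0 called in both lists. There, 10 of 10 hepatoblast markers (median 0.42) and 2 of 10 endothelial markers (median -0.20) were positive. Both lists had 0 called and sums that overlapped with control. Summed hemoglobin handling genes lay above control without overlap, at 1028 to 1235 against 840 to 978 TPM, with 0 of 11 called. *Gfi1* was the only marker at 0 in all libraries of an LSEC group, the controls. The part of any of these in the globin results was not tested.

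The table held 7 further globin genes. *Hbq1a* was listed at 0 in all 24 libraries, and *Hbb-bh2*, a beta-like gene, was above 0 in 1 library only (0.293 TPM, *Brg1/Chd4-ECdko* LSEC 1). *Hbq1b* reached at most 1.78 TPM in LSECs and 4.76 TPM in non-EC cells, where *Chd4-ECko* (1.39, 1.82 and 4.76 TPM) and control (3.97, 3.80 and 0.856 TPM) overlapped. *Cygb*, cytoglobin of non-blood cells, was at 5.14 to 11.5 TPM in LSECs and at most 0.602 TPM in non-EC cells. *Adgb* reached 2.83 TPM, myoglobin *Mb* 1.84 TPM and neuroglobin *Ngb* 0.0983 TPM at most. Only *Cygb* and *Adgb* were tested among genotypes in LSECs and *Hbq1b* in non-EC cells, and none was called.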

How the data were processed

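RNA of the CD146+ and CD146- fractions of E12.5 livers had been prepared with transcription inhibitors present, and the authors deposited 1 table of TPM per gene for the 24 libraries, made in CLC Genomics Workbench on the mouse build GRCm39/mm39. The version and the counting options are not given in the sources used here. TPM sum to the same total in every library, so the depth behind a value cannot be read from them and no counting interval is given. The paper states a single read number for the sequencing, without a value per library. A further 8 columns held group means, which matched the replicate means to within 6.67e-06 TPM and were not used. No 2 libraries were identical, and replicates correlated at r = 0.981 to 0.996 on the log2(TPM + 1) scale.

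Groups came from the sample labels. Genes at 1 TPM or more in at least 3 libraries of a fit were tested on log2(TPM + 1), with a pseudocount of 1 TPM, by limma 3.58.1 (R 4.3.3; trended moderation, Benjamini-Hochberg adjustment over all genes tested), 1 fit per fraction and 1 over all 24 libraries for comparisons across fractions. A gene was called at an adjusted p below 0.05 and a log2 fold change of at least 1 in size. P-values measure the spread between these libraries. In data simulated for *Chd4-ECko* against control LSECs, 99% of genes changed by 2 and 98% of those changed by 3 on the log2 scale were called, with 3 false calls of 13428 genes. The changed genes were drawn only from genes above a set mean level, with independent normal noise at the spread of each gene. No share was given for genes as variable as the adult globins, so the simulation does not show that these were unchanged. Summaries and figures were made in Python 3.11.15 with pandas 2.3.3, numpy 2.4.6 and matplotlib 3.10.9.

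Same-numbered libraries deviated together (correlation above 0.1) in 13 of 18 pairs of genotypes in LSECs and 10 of 18 in non-EC cells, so numbers were not taken as pairs within a fraction. Between fractions of the same genotype 12 of 12 pairs did (r = 0.124 to 0.411), so the numbers were taken to pair those libraries; the labels do not state it.

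The globin genes, gene lists and tests were chosen with earlier results of these data known. Named genes were the 7 members, the further globins in the table, the 5 genes of highest correlation with the embryonic and with the adult mean, list members called in *Chd4-ECko* LSECs, *Chd4* and *Smarca4*, and markers at 0. List members called in non-EC cells (*Serpina1a*, *Apoa1*, *Apoa2* and *Tfrc*) were added once their values were known. The *Brg1-ECko* number 2 pair, whose adult globin ratios differ between fractions, was left out of the blocked fit as a further alternative. Alternatives were a pseudocount of 0.1 TPM, no filter, a mean filter of 5 TPM, quantile normalization, rescaling without globin and mitochondrial genes, levels relative to red cell genes, summed pairs, no trend, no fold threshold, compared groups alone, a replicate block and leaving out each library. Promoter sequences were RefSeq windows on GRCm38.p6, and gene positions and coding sequences were of GRCm39. The calls of single red cell genes in *Brg1-ECko* non-EC cells are not reported here.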

Additional observations from a re-analysis of the deposited data

Results flagged for a closer look

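The change of *Hbb-bh1* differed between the fractions in both genotypes that lack CHD4. In *Chd4-ECko* the LSEC fold change exceeded the non-EC fold change by 3.30 on the log2 scale (SE 0.31 with the embryo as a block, adjusted p = 0.00149, limma), and the LSEC library exceeded its non-EC partner in 3 of 3 pairs, against 0 of 3 in control. In *Brg1/Chd4-ECdko* the difference was 3.34 (SE 0.31, adjusted p = 0.00133), again with 3 of 3 pairs higher in LSECs. Both were drawn from the test of the difference itself with the block that was added after the data were seen, share the control libraries, and did not pass without any block (adjusted p = 0.0899 and 0.242). The *Chd4-ECko* difference also passed under quantile normalization (3.97, adjusted p = 0.0242), with a block by number (adjusted p = 0.0338, against 0.101 for the double mutant) and without LSEC *Chd4-ECko* 1 (4.07, adjusted p = 0.0336). Relative to the red cell genes, with no block, the differences were 2.40 (adjusted p = 0.217) and 2.90 (adjusted p = 0.338), and without non-EC *Chd4-ECko* 1 the first was 2.47.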

How the results depend on the processing

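Of the fold changes reported, 461 of 503 values under other settings and 289 of 342 with a library left out kept their direction and their side of the threshold, as did 128 of 137 and 88 of 90 counts of called globins within 1.5 times. The limits are depth, which TPM do not hold, 3 libraries a group, the near-identical adult pairs, and the choice of scale between fractions that differ in red cell content. The cause of the changes below was not tested.

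With levels relative to the other red cell genes, the control LSEC against non-EC difference turned to 1.72 for *Hbb-bh1*, 0.47 for *Hbb-bs*, 0.62 for *Hbb-bt*, 0.32 for *Hba-a1* and 0.42 for *Hba-a2*. In *Chd4-ECko* LSECs it turned *Hbb-bt* to -0.043 and *Hba-a1* to -0.55, in *Brg1-ECko* LSECs *Hbb-bh1* to -0.12, and in *Chd4-ECko* non-EC cells *Hbb-bs* to 0.0047 and *Hba-a1* to 0.14. The differences between fractions turned to -0.071 for *Hba-x* of *Chd4-ECko*, -0.15 for *Hba-x* of *Brg1-ECko* and -0.27 for *Hbb-y* of the double mutant, and 1 globin, *Hbb-y* (1.90, adjusted p = 0.0220), was called in *Brg1-ECko* non-EC cells. Quantile normalization turned *Hbb-bh1* of *Brg1-ECko* LSECs to -0.035 and the fraction difference of *Hbb-y* of *Brg1-ECko* to 0.086. A pseudocount of 0.1 TPM turned that of *Hbb-y* of the double mutant to -0.031. Summed pairs turned *Hbb-bs* (as *Hbb-bs* plus *Hbb-bt*) to 0.19 in *Chd4-ECko* LSECs, and *Hbb-bt* and *Hba-a2* to -0.026 and -0.012 in *Chd4-ECko* non-EC cells. Between control fractions *Hbb-bh1* was called lower under quantile normalization (-1.65, adjusted p = 0.0261) and with the compared groups alone (adjusted p = 0.0198). Of the estimates that turned, only *Hbb-bh1* between control fractions relative to red cell genes passed the test. That scale moves every gene of a comparison by the same amount. Its turns therefore follow from the level of the red cell genes and are no separate result for single globins.

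For the fraction difference of *Chd4-ECko*, 1 globin (*Hbb-bh1*) was called under quantile normalization (adjusted p = 0.0242), with a replicate block by number (adjusted p = 0.0338) and with the replicate block by embryo, with or without *Brg1-ECko* pair 2. For the double mutant 1 was called with both embryo blocks. Within a fraction the replicate block by number changed no call of a globin, and between control fractions it added *Hbb-bh1* (-1.23, adjusted p = 0.0463). With the compared groups alone, 1 globin (*Hbb-y*) was called in *Chd4-ECko* and 1 in double mutant non-EC cells.

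With a library left out, fold changes in *Chd4-ECko* LSECs ranged from -0.70 to 0.27 for *Hbb-bs*, -0.0037 to 1.33 for *Hbb-bt*, -0.28 to 0.49 for *Hba-a1* and -0.19 to 2.31 for *Hba-a2*. In *Chd4-ECko* non-EC cells they ranged from -0.91 to 0.16, -0.58 to 1.05, -0.66 to 0.30 and -0.70 to 2.15. *Hba-x* of *Brg1-ECko* non-EC cells ranged from -0.27 to 0.50 and *Hbb-bh1* of *Brg1-ECko* LSECs from -0.29 to 0.29. Fraction differences ranged from -0.14 to 1.41 for *Hba-x* and -1.20 to 0.043 for *Hbb-y* of *Chd4-ECko*, -0.59 to 0.27 for *Hbb-y* of *Brg1-ECko* and -0.14 to 0.43 for *Hbb-y* of the double mutant. Called globins ranged from 0 to 3 for the double mutant against *Chd4-ECko* in non-EC cells (3 without *Chd4-ECko* 1) and from 0 to 1 for the fraction difference of *Chd4-ECko* (1 without LSEC *Chd4-ECko* 1). In double mutant LSECs *Hbb-y* was also not called without a filter (adjusted p = 0.0663) or under quantile normalization (adjusted p = 0.0680).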
